A study of Homo sapiens with 8 samples.

Results

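The calcitonin peptide family was followed through 9 gene names: the peptide genes CALCA, CALCB, IAPP and ADM, the receptors CALCR and CALCRL, and the receptor activity-modifying proteins RAMP1, RAMP2 and RAMP3. Every non-control probe whose annotated gene name was one of these was taken, and each probe was kept separate. This gave 14 of 50599 probes, for 8 of the 9 names and of 36337 gene names on the array. CALCA and CALCRL had 3 probes each, CALCR and RAMP1 2 each, and ADM, IAPP, RAMP2 and RAMP3 1 each. No probe carried the name CALCB, although 1 CALCA probe was also annotated to a CALCB transcript, so its signal could hold both.

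Calcitonin is the hormone of the thyroid C cells and the serum marker of medullary thyroid carcinoma. The same gene, CALCA, also encodes calcitonin gene-related peptide (CGRP) through a different choice of exons, and the precursor of each peptide is cut and amidated in the secretory pathway. Calcitonin and amylin (IAPP) signal through the calcitonin receptor CALCR, CGRP and adrenomedullin (ADM) through the calcitonin receptor-like receptor CALCRL. RAMP1, RAMP2 and RAMP3 bind these receptors and set which peptide they recognise.

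RNA came from 2 human thyroid lines on 8 one-colour arrays, with 2 arrays per group. Nthy-ori 3-1, an immortalised line from normal follicular epithelium, had received a control (ORI_CTL) or premiR-375, a synthetic miR-375 precursor at 5 nM (ORI_premiR-375). TT, a medullary thyroid carcinoma line grown in another medium, had received a control (TT_CTL) or AntagomiR-375, an inhibitor at 20 nM (TT_AntagomiR-375). All groups were transfected for 48 h with the same lipid reagent, and the labels named the controls CTL only. The transfection concentrations are those of the labels, and the study's methods state others. The study's methods call the replicates biological, while the labels do not say whether they were separate cultures, so p-values measured the spread between these samples. The RNA integrity number was 8 for TT_CTL and 9 for the other groups, which in TT cannot be told apart from the treatment.

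The miRNA that was raised or blocked is shown first, with its seed (bases 2 to 8) in capitals, because both treatments act on it. The mature sequence was taken from RefSeq, where it lies on GRCh38.p14 at chr2:219001648-219001669 on the minus strand.
hsa-miR-375-3p: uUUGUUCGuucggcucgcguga

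Calcitonin and CGRP transcripts of CALCA could be told apart by probe, and a probe of each is shown for that reason. The calcitonin probe A_33_P3318771 (hg19 chr11:14990373-14990432, minus strand) matched the transcript variants that encode calcitonin. The CGRP probe A_24_P198178 (hg19 chr11:14989258-14989317, minus strand) matched the variant that encodes CGRP, and also CALCB. Both lie in open reading frame, and capitals mark the codons of a glycine followed by 3 basic residues, the kind of site at which these precursors are cut and amidated.
A_33_P3318771: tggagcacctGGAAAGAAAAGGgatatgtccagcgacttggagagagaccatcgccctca
A_24_P198178: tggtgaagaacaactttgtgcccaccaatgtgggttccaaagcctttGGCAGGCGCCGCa
The third CALCA probe, A_23_P301846 (hg19 chr11:14990188-14990247, minus strand), lies further downstream in the calcitonin variants.

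The line labels were set against 9 C-cell and 8 follicular marker genes. All 9 C-cell markers were well above background on every TT array and 2 of 9 (NCAM1 and RET) on both ORI_CTL arrays, and their summed normalized level was 17.0 to 17.3 (log2) in TT and 9.62 to 10.3 in the 4 Nthy-ori 3-1 arrays. Of the follicular markers, the transcription factors PAX8 and FOXE1 were higher in ORI_CTL, with log2 differences of TT_CTL over ORI_CTL of -5.25 (SE 0.29) and -6.82 (SE 0.12). TG, the gene of thyroglobulin, and DIO1, a deiodinase, were called higher in TT_CTL, TG at 9.13 and 9.13 against 4.72 and 5.02 in ORI_CTL and DIO1 at 6.60 and 6.91 against 3.46 and 2.03. Of the 8 follicular markers limma thus called 2 higher (12.9% of all probes) and 2 lower (12.8%) in TT_CTL, and TSHR was not well above background in either control group. The summed follicular level was 10.8 to 11.2 in Nthy-ori 3-1 and 9.65 to 9.69 in TT. Such sums were mostly the brightest gene. For the C-cell markers this was CHGA in TT and NCAM1 in ORI_CTL. For the follicular markers it was PAX8 in Nthy-ori 3-1 and TG in TT.

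**Figure D1:**
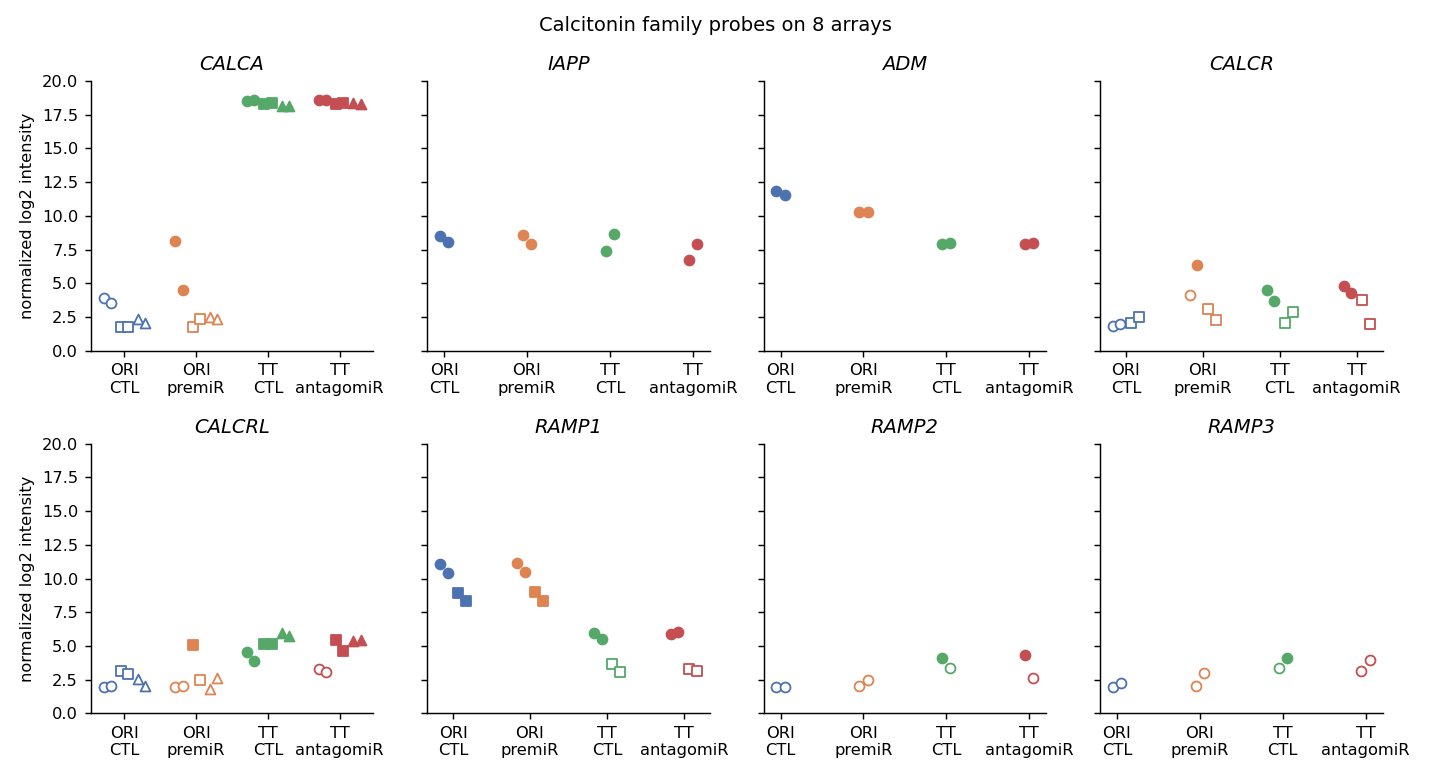
Normalized log2 intensity (y axis) of the 14 probes on each of the 8 arrays, by gene and group, where ORI stands for Nthy-ori 3-1. Each point is 1 array, symbols separate the probes of a gene, and open symbols are values not well above background. CALCA was near 18 on the TT arrays and near background in ORI_CTL, while ADM and RAMP1 were higher in Nthy-ori 3-1.

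CALCA separated the lines more widely than any other family member. The calcitonin probe A_33_P3318771 read 18.14 and 18.14 in TT_CTL and 2.38 and 2.07 in ORI_CTL (normalized log2 intensity), and the CGRP probe read 18.33 and 18.38 against 1.75 and 1.75. The downstream calcitonin probe A_23_P301846 read 18.49 and 18.61 against 3.91 and 3.57. All 3 were well above background on both TT_CTL arrays and on neither ORI_CTL array, so each difference has only a lower bound, taken against the weakest signal that was well above background on the ORI_CTL arrays. CALCA was at least 14057-fold higher in TT_CTL with A_33_P3318771, at least 16331-fold with the CGRP probe and at least 18713-fold with A_23_P301846 (limma adjusted p = 0.00125 for each). These bounds hold for the quantile-normalized scale, and over the alternatives the fitted log2 difference went down to 11.97, 12.45 and 12.20, in that order, with normexp background correction. In bulk RNA, fewer cells of a type and less RNA per cell cannot be told apart. Line, medium, slide, kind of control and RNA integrity number cannot be told apart in any comparison of TT_CTL with ORI_CTL.

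The CALCA signals in TT were at the top of the measured range. On the 4 TT arrays the 3 probes ranked between 1 and 9 of all 50599 probes by processed intensity, and no spot was marked as saturated. Quantile normalization gives the same value to probes of the same rank on different arrays, so changes of these probes in TT are bounded by their rank. On that scale A_23_P301846 differed by 0.06 with AntagomiR-375 (SE 0.09, limma adjusted p = 0.820), the CGRP probe by -0.03 (SE 0.08, adjusted p = 0.932) and A_33_P3318771 by 0.22 (SE 0.08, adjusted p = 0.560).

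Within an array, the ratio of the CGRP probe to a calcitonin probe needs no normalization between arrays. The log2 ratio of processed intensities, CGRP over A_33_P3318771, was 0.24 and 0.29 in TT_CTL and -0.09 and 0.03 in TT_AntagomiR-375. The difference was -0.32 in the first pair and -0.26 in the second. Over the downstream calcitonin probe A_23_P301846 the ratio was -0.12 and -0.08 in TT_CTL and -0.30 and -0.29 in TT_AntagomiR-375, a difference of -0.18 and -0.21. The groups did not overlap with either calcitonin probe, but 2 arrays against 2 cannot give a two-sided exact permutation p below 0.333.

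The level of such a ratio depends on how well each probe hybridises, so only its change between arrays of the same line was read. The unnormalized log2 difference was 0.17 for A_33_P3318771, 0.08 for A_23_P301846 and -0.12 for the CGRP probe. The other 20 brightest probes of the TT arrays differed by -0.23 to 0.02, with a median of -0.08, so both calcitonin probes lay above that range and the CGRP probe within it. Of the 9 C-cell markers, 8 read higher with AntagomiR-375 in both pairs and 1 lower, with a median log2 difference of 0.23 against 0.00 over all probes, and limma called none (2 at an unadjusted p under 0.05, against 9.72% of all probes). Their summed level was 17.0 and 17.3 in TT_CTL and 17.3 and 17.3 in TT_AntagomiR-375, and their part in the CALCA values was not tested. With the median pixel signal, not normalized between arrays, the mean difference of the ratio was -0.34 against A_33_P3318771 and -0.24 against A_23_P301846. On the quantile-normalized scale it was -0.24 and -0.09, and -0.26 and 0.00 with the deposited values, in which A_23_P301846 and the CGRP probe held the same ranks on the arrays of a pair.

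**Figure D2:**
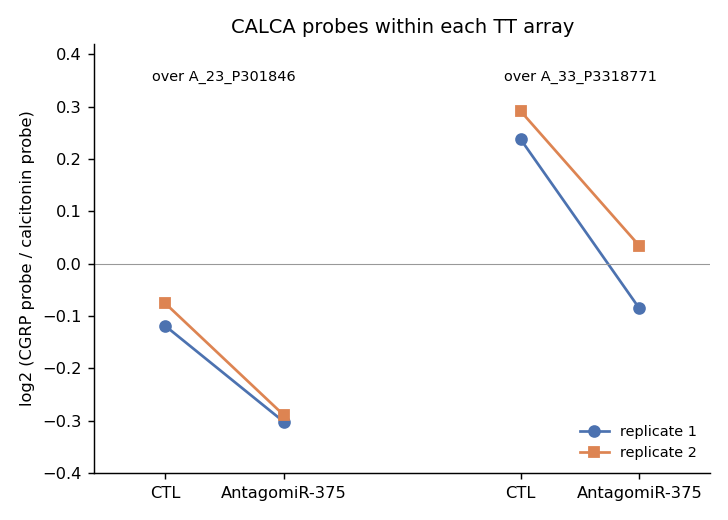
Log2 ratio of processed intensities of the CGRP probe over each of 2 calcitonin probes (y axis) on the 4 TT arrays; lines join the arrays of the same replicate number. The ratio was lower with AntagomiR-375 in both pairs and for both calcitonin probes.

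In Nthy-ori 3-1 with premiR-375, CALCA was well above background on 1 of the 3 probes. A_23_P301846 read 3.91 and 3.57 in ORI_CTL, not well above background, and 8.12 and 4.51 in ORI_premiR-375, well above background on both arrays. The log2 difference was 4.21 in the first pair and 0.94 in the second, and limma gave an adjusted p of 0.511. The lower bound of at least 3.88-fold from the group means rests on the first ORI_premiR-375 array, since the pair without it differed by 0.94 only. The calcitonin probe A_33_P3318771 and the CGRP probe were not well above background on any Nthy-ori 3-1 array.

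The C-cell markers were read on the same arrays, and limma called 0 of the 9 with premiR-375 (3 at an unadjusted p under 0.05, against 14.3% of all probes). The number of C-cell markers well above background was 5 and 6 of 9 on the ORI_premiR-375 arrays. SCG2, a secretogranin, read 2.10 and 4.62 in ORI_CTL and 6.72 and 8.42 in ORI_premiR-375, SYP, the synaptic vesicle protein synaptophysin, 1.91 and 2.11 against 5.49 and 6.15, and CHGA, chromogranin A, 3.46 and 2.09 against 4.91 and 5.13. None of these differences passed the test (limma adjusted p = 0.318 for SCG2 and SYP and 0.363 for CHGA). The summed level of the list overlapped, at 9.62 and 10.3 in ORI_CTL and 9.91 and 9.97 in ORI_premiR-375. In ORI_CTL that sum was mostly NCAM1, which read 10.13 and 9.36 there and 9.41 and 8.89 in ORI_premiR-375. The sum therefore does not describe the dimmer markers. CEACAM5 and INSM1 were not well above background on any of these arrays. The part of these genes in the CALCA signal was not tested.

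IAPP, the gene of amylin, was measured on all 8 arrays. It read 8.53 and 8.04 in ORI_CTL, 8.59 and 7.94 in ORI_premiR-375, 7.40 and 8.66 in TT_CTL and 6.75 and 7.90 in TT_AntagomiR-375. The TT arrays differed more between replicates than between treatments, and the 2 groups of each line overlapped. Within each TT pair IAPP was lower with AntagomiR-375, by -0.66 and -0.76, with a mean of -0.71 (SE 0.09, 95% interval -1.08 to -0.34), which limma did not call (adjusted p = 0.512). With premiR-375 the difference was -0.02 (SE 0.10, 95% interval -0.44 to 0.40), and between the control groups it was -0.25 (SE 0.54, adjusted p = 0.791).

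ADM, the gene of the vasodilator adrenomedullin, had the highest level in ORI_CTL, followed by ORI_premiR-375 and then by the TT groups. Its probe (hg19 chr11:10328780-10328839, plus strand) was printed at 10 spots, of which 9 or 10 were used per array, with a coefficient of variation of 3.43% to 9.56% among them. The normalized log2 intensity was 11.82 and 11.58 in ORI_CTL, 10.31 and 10.32 in ORI_premiR-375, 7.95 and 7.99 in TT_CTL and 7.89 and 7.98 in TT_AntagomiR-375. The 2 Nthy-ori 3-1 groups did not overlap, and neither overlapped TT, while the 2 TT groups overlapped each other. TT_CTL differed from ORI_CTL by -3.73 on the log2 scale (SE 0.15, limma adjusted p = 0.00275), a 13.3-fold difference.

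With premiR-375 ADM was 2.40-fold and 2.85-fold lower in the 2 pairs, a mean log2 difference of -1.39 (SE 0.12, 95% interval -1.90 to -0.87). Limma gave an adjusted p of 0.318, which was the lowest value in that comparison but was shared with other probes. The unadjusted limma p was 0.00735 for ADM and lower, at 0.00227, for SYP. With normexp background correction, with the median signal and with the deposited values ADM passed the threshold (limma adjusted p = 0.0277, 0.0442 and 0.0432), and over all alternatives its adjusted p ranged from 0.0277 to 0.583. With AntagomiR-375 in TT the difference was -0.04 (SE 0.08, 95% interval -0.38 to 0.31).

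**Figure D3:**
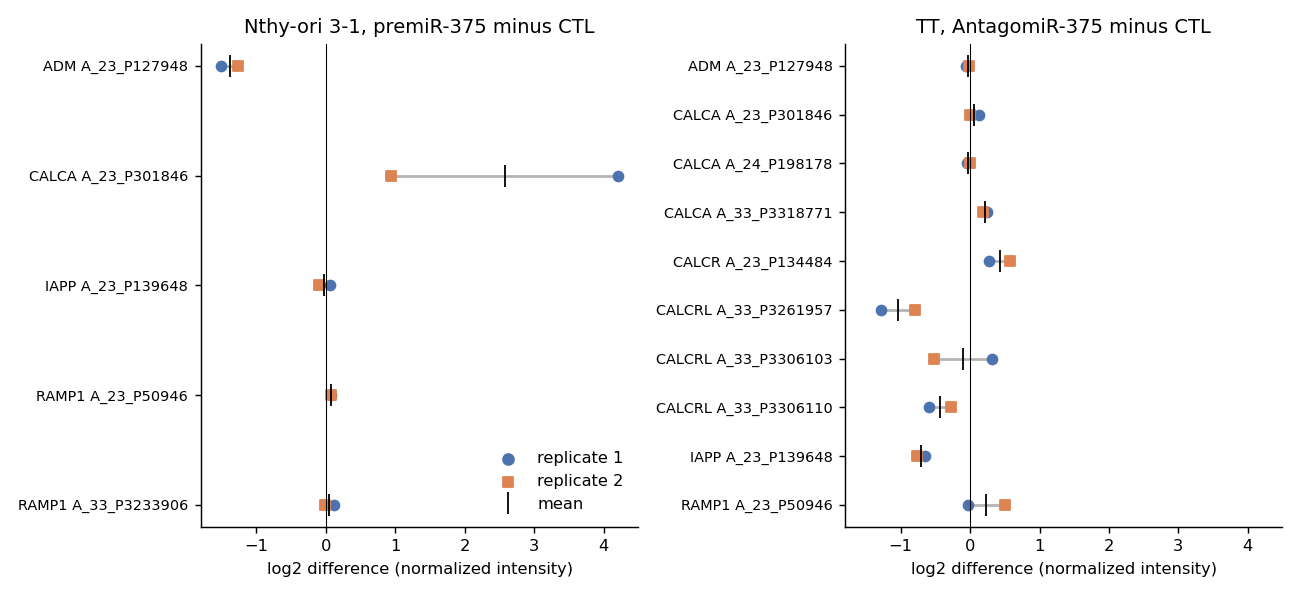
Log2 difference of normalized intensity, treated minus control (x axis), for each family probe that was well above background on both arrays of at least 1 of the compared groups. Circles and squares are the 2 replicate pairs and the bar is their mean. ADM lay near -1.4 in both Nthy-ori 3-1 pairs and near 0 in both TT pairs.

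Hypoxia raises ADM, so 10 genes of the hypoxia response were followed beside it. In Nthy-ori 3-1, 9 of the 10 were well above background in at least 1 group, and all 9 were lower with premiR-375 in both pairs. Their median log2 difference was -0.95, against 0.00 over all probes. The limma test called 0 of the 10, as it called no probe at all in that comparison, and 9 of the 10 had an unadjusted p under 0.05 (14.3% of all probes did), which were 8 of the measured genes and EGLN3.

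CA9, a carbonic anhydrase, read 6.51 and 6.54 in ORI_CTL and 4.92 and 5.23 in ORI_premiR-375. PDK1, a kinase that restrains pyruvate dehydrogenase, read 9.84 and 9.82 against 8.29 and 8.55. These were the 2 largest differences among the measured genes, and neither pair of groups overlapped. EGLN3, a prolyl hydroxylase of the hypoxia-inducible factors, was the exception in direction, but it was not well above background on any Nthy-ori 3-1 array.

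In TT the same list had a median log2 difference of 0.09 with AntagomiR-375 and no called gene (1 of 10 at an unadjusted p under 0.05, against 9.72% of all probes). SLC2A1, the glucose transporter GLUT1, differed by 0.51 (SE 0.08, limma adjusted p = 0.512), and PDK1 by -0.32 (SE 0.08, adjusted p = 0.512). Between the control groups 6 of the 10 were called lower in TT_CTL (12.8% of all probes) and EGLN3 higher (12.9%), with SLC2A1 differing by -2.76 (SE 0.13, adjusted p = 0.00339).

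**Figure D4:**
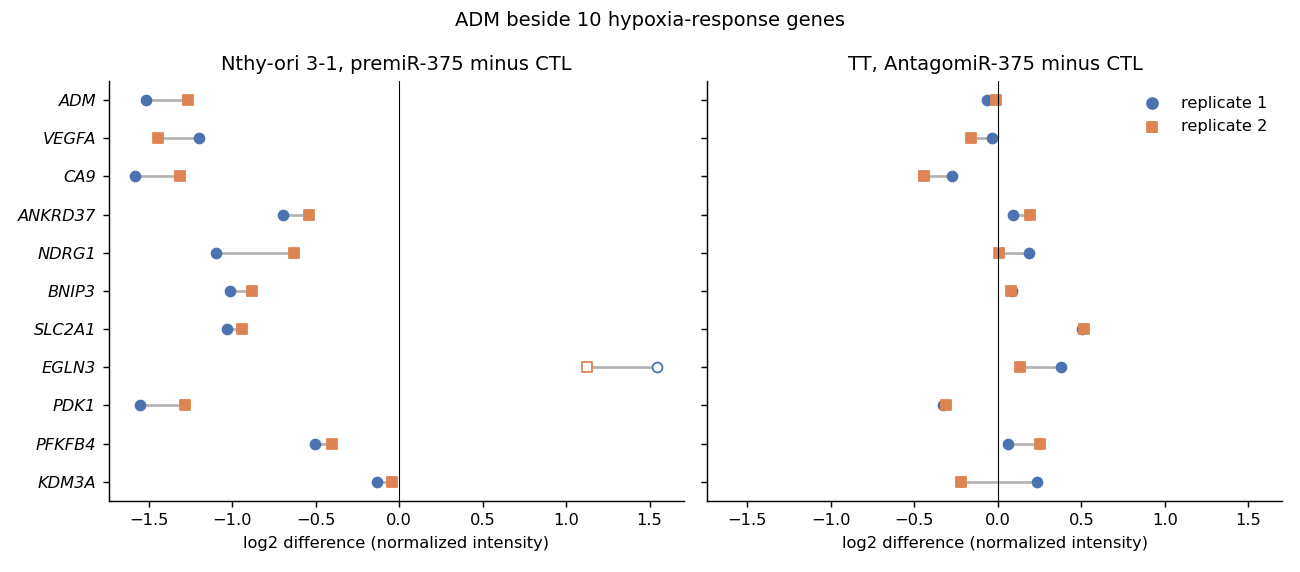
Log2 difference of normalized intensity, treated minus control (x axis), for ADM and 10 genes of the hypoxia response; circles and squares are the 2 replicate pairs, and open symbols mark a gene not well above background on both arrays of either group. In Nthy-ori 3-1 all filled symbols lie below 0, and in TT they lie on both sides of it.

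The calcitonin receptor gene CALCR was near the detection limit. A_23_P134484 read 4.49 and 3.67 in TT_CTL, 4.77 and 4.24 in TT_AntagomiR-375, 1.86 and 1.96 in ORI_CTL and 4.13 and 6.36 in ORI_premiR-375. It was well above background on the 4 TT arrays, on the second ORI_premiR-375 array and on no ORI_CTL array. The fitted difference of TT_CTL over ORI_CTL was 2.17 (SE 0.34, limma adjusted p = 0.0309), but TT_CTL did not exceed the weakest signal above background on the ORI_CTL arrays, so no fold is given, and with the deposited values the difference was -0.03. The second CALCR probe, A_33_P3710082, was not well above background on any array.

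CALCRL, the receptor of CGRP and adrenomedullin, was detected in TT at low intensity. A_33_P3306110 read 5.99 and 5.73 in TT_CTL and 5.40 and 5.45 in TT_AntagomiR-375, and A_33_P3306103 read 5.12 and 5.15 against 5.43 and 4.63. On the ORI_CTL arrays none of the 3 CALCRL probes was well above background, and on the ORI_premiR-375 arrays A_33_P3306103 was on the first, at 5.05. CALCRL was at least 2.83-fold higher in TT_CTL with A_33_P3306110 (limma adjusted p = 0.0068) and at least 1.72-fold with A_33_P3306103 (adjusted p = 0.00647). Both bounds depend on the scale: with the deposited values the fitted log2 difference was 0.81 and 0.37, against 3.55 and 2.09 here. A_33_P3306103 was not called with the deposited values (limma adjusted p = 0.0567) or with the slide as a random block (adjusted p = 0.174).

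With AntagomiR-375 limma called none of the 3 CALCRL probes. A_33_P3261957 was well above background on both TT_CTL arrays, at 4.55 and 3.90, and on neither TT_AntagomiR-375 array, a lower bound of at least 1.41-fold (limma adjusted p = 0.512). A_33_P3306110 differed by -0.43 (SE 0.14, adjusted p = 0.528) and was lower in both pairs. A_33_P3306103 differed by -0.10 (SE 0.30, adjusted p = 0.922), with the 2 pairs in opposite directions.

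RAMP1, which with CALCRL forms the CGRP receptor, was, with ADM, the family member called higher in Nthy-ori 3-1. A_23_P50946 read 11.08 and 10.41 in ORI_CTL, 11.16 and 10.48 in ORI_premiR-375, 5.95 and 5.53 in TT_CTL and 5.91 and 6.03 in TT_AntagomiR-375. The lines did not overlap, and within each line the groups did. TT_CTL differed from ORI_CTL by -5.00 (SE 0.33, limma adjusted p = 0.00608), a 32.1-fold difference.

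The second RAMP1 probe, A_33_P3233906, read 8.92 and 8.36 in ORI_CTL and was not well above background on any TT array, which put RAMP1 at least 36.0-fold higher in ORI_CTL (limma adjusted p = 0.00591). That bound depends on the scale, as the fitted log2 difference of TT_CTL over ORI_CTL was -5.26 here and -2.59 with normexp background correction. With premiR-375 the RAMP1 probes differed by 0.08 (SE 0.08, 95% interval -0.27 to 0.42) and 0.05 (SE 0.09, 95% interval -0.35 to 0.45). With AntagomiR-375 A_23_P50946 differed by 0.23 (SE 0.20, adjusted p = 0.702), with the pairs on opposite sides of 0.

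RAMP2 and RAMP3, whose pairing with CALCRL makes the adrenomedullin receptors, were seen on single TT arrays. RAMP2 was well above background on 1 TT_CTL array, at 4.11, and on 1 TT_AntagomiR-375 array, at 4.36. RAMP3 was well above background on 1 TT_CTL array, at 4.09. Neither was well above background on a Nthy-ori 3-1 array, and no fold is given for them.

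Counted over the family, the treatments gave no call. With premiR-375 limma called 0 of the 14 probes at an adjusted p of at most 0.05, against 0.0% of all 50599 probes, and with AntagomiR-375 0 of 14, against 0.0%. At an unadjusted p under 0.05 there were 2 of 14 with premiR-375 (ADM and CALCR) against 14.3% of all probes, and 2 of 14 with AntagomiR-375 (IAPP and a CALCRL probe) against 9.72%. The study's methods also used fold thresholds. Of the 14, ADM alone had an average of 6 or more with a log2 difference of -1 or below under premiR-375, as had 1.36% of all probes, and 0 of 14 reached 1 or more, against 0.678%. With AntagomiR-375 and an average above 6, 0 of 14 reached a log2 difference of 0.6 (1.18% of all probes), and IAPP alone was at -0.6 or below (0.644%).

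Between the control groups limma called 8 of the 14 probes higher in TT_CTL (12.9% of all probes), which were the 3 CALCA probes, the 3 CALCRL probes, CALCR A_23_P134484 and RAMP2. It called 3 lower, ADM and both RAMP1 probes (12.8% of all probes). Over all probes 50.1% of the calls were higher in TT_CTL, and 28.8% when each line was normalized alone. Fits without 1 control array left a lone array in a group, which was taken to vary like the other group, so their counts of calls are not given. Family calls, those of CALCA included, were lost without the first TT_CTL array, so the calls depend on single arrays. With the deposited values 7 of the 14 family probes were called, and the count over all probes is given in the last section. The TT_AntagomiR-375 arrays had the same RNA integrity number as ORI_CTL, and with them in place of TT_CTL 10 were called. The share of all probes called with that replacement is not given here, so the 10 cannot be set against it.

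Genes of peptide processing differed between the lines in the same direction as CALCA, by unlike amounts. All 6 listed processing genes were called higher in TT_CTL (12.9% of all probes), with a median log2 difference of 7.20 against -0.05 over all probes. The smallest difference was that of PCSK1N, at 0.78 (SE 0.14, limma adjusted p = 0.038). The prohormone convertases PCSK1 and PCSK2, which cut precursors at basic residues, were at least 806-fold and at least 194-fold higher and not well above background in Nthy-ori 3-1. PAM, the enzyme that amidates peptides ending in glycine, read 12.59 and 12.65 in ORI_CTL and was 2.78 higher in TT_CTL (SE 0.15, limma adjusted p = 0.00426).

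With premiR-375 none of the 6 was called (2 at an unadjusted p under 0.05, against 14.3% of all probes). CPE, the carboxypeptidase that removes the basic residues, differed by 0.70 (SE 0.17, limma adjusted p = 0.361), PAM by 0.58 (SE 0.11, adjusted p = 0.326) and SCG5, the chaperone of PCSK2, by -0.75 (SE 0.14, adjusted p = 0.327). With AntagomiR-375 none was called (1 at an unadjusted p under 0.05, against 9.72%), and PCSK1 differed by 0.47 (SE 0.10, adjusted p = 0.512) and PCSK2 by 0.26 (SE 0.08, adjusted p = 0.527).

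**Figure D5:**
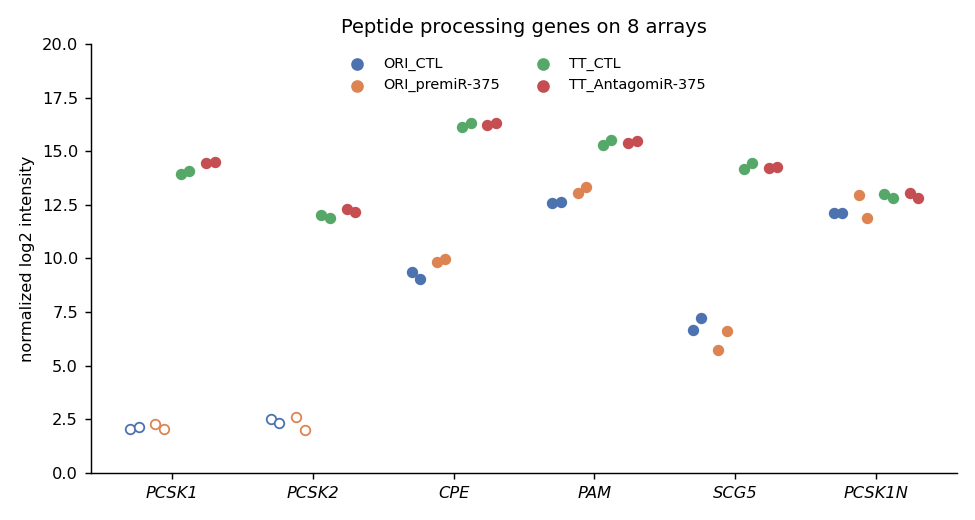
Normalized log2 intensity (y axis) of 6 peptide-processing genes on the 8 arrays; each point is 1 array, and open symbols mark groups in which the probe was not well above background on both arrays. PCSK1 and PCSK2 were near background in Nthy-ori 3-1 and near 14 and 12 in TT.

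Among 11 RNA-binding proteins that act on alternative exons, several of which are known to act on CALCA, 4 were called higher (12.9% of all probes) and 1 lower (12.8%) in TT_CTL. RBFOX1 and ELAVL2, both typical of neurons, were at least 17.4-fold and at least 11.8-fold higher. PTBP1, a repressor of neuronal exons, read 7.97 and 8.06 in TT_CTL and 9.03 and 9.51 in ORI_CTL, a difference of -1.26 (SE 0.22, limma adjusted p = 0.0384).

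Limma called none of the 11 with either treatment. With premiR-375 2 of 11 had an unadjusted p under 0.05, against 14.3% of all probes, and PTBP1 differed by -0.53 (SE 0.09, limma adjusted p = 0.325). With AntagomiR-375 4 of 11 did, against 9.72%. PTBP1 read 8.94 and 8.66 against 7.97 and 8.06 in TT_CTL (difference 0.79, SE 0.15, adjusted p = 0.512), and ELAVL4, a neuronal RNA-binding protein, read 5.36 and 5.03 against 4.15 and 3.92 (difference 1.16, SE 0.09, adjusted p = 0.512). Of the 11, 5 were higher and 4 lower in both pairs. The 2 largest decreases were those of RBFOX1 and RBFOX2, of the same protein family. RBFOX1 read 7.99 and 7.99 against 8.41 and 8.53 (difference -0.48, SE 0.09, limma adjusted p = 0.512). RBFOX2 read 9.41 and 9.40 against 9.72 or more (difference -0.46, SE 0.13, limma adjusted p = 0.517). The groups did not overlap for PTBP1, ELAVL4, RBFOX1 or RBFOX2, nor for others of the list. The share of all probes without overlap was not counted, so this lack of overlap cannot be set against it and is given as a description. With 2 arrays against 2, a two-sided exact permutation p cannot fall below 0.333.

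Downstream of the receptors, 22 genes of G protein, adenylate cyclase, protein kinase A and arrestin signalling were followed. Between the control groups 6 were called higher (12.9% of all probes) and 4 lower (12.8%) in TT_CTL, with a median log2 difference of 0.34 against -0.05 over all probes. The adenylate cyclases diverged, with ADCY5 at least 24.3-fold higher in TT_CTL and ADCY1 at least 8.62-fold higher in ORI_CTL. With premiR-375 limma called none of the 22 (5 at an unadjusted p under 0.05, against 14.3% of all probes); ADCY1 read 6.34 and 6.67 in ORI_CTL and 7.96 and 8.36 in ORI_premiR-375, a difference of 1.65 (SE 0.08, adjusted p = 0.318), and ARRB2 differed by -0.90 (SE 0.15, adjusted p = 0.322). With AntagomiR-375 none was called (3 at an unadjusted p under 0.05, against 9.72%). The median was 0.13, and of 21 measured genes 16 read higher and 5 lower. ADCY2, an adenylate cyclase, differed by 1.02 (SE 0.43, limma adjusted p = 0.581) and GNA11, a G protein alpha subunit, by 0.37 (SE 0.09, adjusted p = 0.512). PRKAR2B and PRKACB, a regulatory and a catalytic subunit of protein kinase A, differed by -0.42 (SE 0.12, adjusted p = 0.516) and -0.35 (SE 0.09, adjusted p = 0.512).

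Also followed were 6 genes for related ligands and for binding or clearance of the peptides. Of these, limma called 1 higher (12.9% of all probes) and 1 lower (12.8%) in TT_CTL. The lower one was ACKR3, an atypical receptor that takes up adrenomedullin. It read 7.89 and 7.52 in TT_CTL and 11.50 and 11.11 in ORI_CTL, a difference of -3.60 (SE 0.24, limma adjusted p = 0.00612). With AntagomiR-375 ACKR3 read 7.27 and 7.26, a difference of -0.44 (SE 0.15, adjusted p = 0.535). Limma called none of the 6 with either treatment, and 1 had an unadjusted p under 0.05 with each, against 14.3% of all probes with premiR-375 and 9.72% with AntagomiR-375.

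The profile of A_23_P301846 over the 8 arrays, centred on its mean, was most like those of VCX2, LOC389332, CHGA, DDC and KLK11, among 27243 probes well above background on every TT array. The root mean square difference was 0.88 to 1.31 on the log2 scale. For ADM, among 24193 probes well above background on every Nthy-ori 3-1 array, the nearest profiles were those of CNN3, NR2F2, PLOD2, NFE2L3 and PDE4DIP, with a difference of 0.17 to 0.22. CNN3, a calponin, differed by -1.50 with premiR-375 and by -3.89 between TT_CTL and ORI_CTL, and NR2F2, a nuclear receptor, by -1.58 and -4.14. The 8 values of a profile share line, treatment and slide, and the likeness is given as a description.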

How the data were processed

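Gene expression of 8 samples (2 per group) was measured on one-colour Agilent arrays. For each array the authors deposited Feature Extraction 10.10.1.1 output on hg19 with the processed, mean and median intensity of each spot, not normalized between arrays, and a table of normalized log2 values, made per their methods with limma and quantile normalization. Here log2 processed intensities of the non-control spots, less outliers (341 to 428 per array), were averaged per probe and quantile normalized over all 8 arrays (limma 3.58.1, R 4.3.3). A limma model per line (lmFit, eBayes) held the replicate number of the sample titles as a block, because arrays of the same title number shared a slide (some TT samples carry another number or suffix in their other labels, alike in both groups; deviations of same-numbered arrays correlated at 0.785 over 24194 probes in Nthy-ori 3-1 and 0.330 over 27246 in TT). TT_CTL was compared with ORI_CTL on 4 arrays. P-values were Benjamini-Hochberg adjusted over 50599 probes and called at 0.05. The number of arrays limits the precision. The steps were tested on simulated data.

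The members and the 7 gene lists were chosen with earlier results of these data known. All family probes are named. In each list at most 2 genes per direction and comparison are named, those with the largest log2 change whose brightest probe was well above background on both arrays of a group and changed alike in both pairs, or did not overlap between lines. Further genes were named after their values were seen: CHGA beside the CALCA signal in Nthy-ori 3-1, PAM, PCSK1N, EGLN3, TSHR and CEACAM5. Values of some list genes are not reported here. Lower bounds set the mean of the bright group against the dim group's mean of, per array, the higher of the weakest well-above-background signal and the probe's own value. Alternatives covered scaling, background correction, the deposited values, dim and outlier spots, trend, the block and each replicate; quantile scaling and the unnormalized median signal for the CALCA ratio were chosen after seeing the data.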

Additional observations from a re-analysis of the deposited data

How the results depend on the processing

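Of 344 values of single family probes under an alternative, 298 kept direction and side of the threshold, 27, all between the control groups, lost the call, 3, all of ADM, gained it, 8 reversed, and 8, all of the CALCA ratio, moved by more than the spread between pairs. In Nthy-ori 3-1, 1 family probe (ADM) was called with normexp, with the median signal and with the deposited values, where 1560, 517 and 577 of all probes were called. In TT, 0 family probes were called under any alternative, and 10 of all probes with the median signal. Between the control groups 7 family probes were called with the deposited values and 0 to 8 without 1 array, and of all probes 21683 with each line normalized alone, 19639 with the deposited values (26.9% of them higher in TT_CTL) and 0 to 11429 without 1 array; these 2 scalings moved the median of all probes to -0.46 and -0.31.

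Without the replicate block 0 family probes and 0 of all probes were called in either line, and 4123 probes had an unadjusted p under 0.05 in Nthy-ori 3-1 and 4899 in TT, against 7257 and 4920 with it.

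These reversals concerned values that were small or at the detection limit. CALCR A_23_P134484 between the control groups was -0.032 with the deposited values. With premiR-375, RAMP1 A_33_P3233906 was -0.028 with the median signal, -0.020 with the deposited values and -0.018 to 0.12 without 1 pair, and IAPP was -0.10 to 0.060 without 1 pair. With AntagomiR-375, CALCRL A_33_P3306103 was -0.52 to 0.31 and RAMP1 A_23_P50946 -0.035 to 0.50 without 1 pair. IAPP between the control groups was -0.88 to 0.38 without 1 array. The causes were not tested. Signals at or near background limit CALCR, CALCRL, RAMP2 and RAMP3, and rank limits CALCA in TT.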
